A study of Mus musculus with 6 samples.

Results

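Motile cilia are the beating projections of multiciliated cells, which line the airways of the lung and move mucus towards the throat. Their core, the axoneme, is a ring of doublet microtubules around a central pair. Outer and inner dynein arms on the doublets are the motors, radial spokes and the central apparatus pass signals to them, the nexin-dynein regulatory complex links neighbouring doublets, and tektins and other filaments lie inside the doublet walls. Dynein arms are put together in the cytoplasm by assembly factors before they enter the cilium, and intraflagellar transport carries building blocks along it.

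The genes described here are the protein-coding genes whose symbols begin with Dnah, Dnaic, Dnali, Dnal, Dnaaf, Cfap, Rsph, Tekt, Spag or Drc followed by a digit. There were 83 of them among the 54532 genes of the deposited table, 22046 of which are protein-coding. The symbol alone chose them, so the set also holds genes with other roles. Of the 83, 8 are broadly expressed outside motile cilia (Spag5, Spag7, Spag9, Cfap36, Cfap97, Dnal4, Dnaaf2 and Dnaaf5).

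Expression was measured by RNA-seq in perfused whole lungs of untreated mice at 2 months of age, from 3 purchased C57BL/6J WT mice and 3 ISM1-/- mice bred in-house on the same background, with 1 library per mouse. ISM1-/- mice are knockouts of isthmin-1, a secreted protein, and the comparison asks how the lung transcriptome differs without it. All WT mice thus came from a supplier and all ISM1-/- mice from a local colony, and the effect of genotype and that of origin cannot be told apart. Total counts lay between 37606133 and 42345042 per library. Ism1 itself was counted at 82.1, 77.4 and 76.9 CPM (counts scaled to one library size, with TMM factors) in WT and at 65.4, 66.0 and 75.6 CPM in ISM1-/-. Its log2 fold change was −0.19 ± 0.071 (SE) with an edgeR adjusted p of 0.217, so the libraries labelled ISM1-KO still held Ism1 transcript, and the transcript level does not check the labels.

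In ISM1-/- lungs the motile cilia genes were lower as a group by a modest amount. Of the 83 genes, 79 had at least 0.5 CPM in at least 1 library and were tested. Of these, 43 (54.4%) fell at an adjusted p under 0.1 in edgeR's quasi-likelihood test and 36 were not called. None rose in this test or with DESeq2, and 2 were higher at an unadjusted p under 0.05 in edgeR. Across all 18689 genes tested, 3.34% were called lower and 1.38% higher. The falls were small, between 21.4% and 38.7% of the WT mean for the 43 genes, and no member was both called lower and at least 2-fold lower, beside 0.284% of all genes. At an adjusted p under 0.05 there were 34 members lower, against 1.83% of all genes, and the DESeq2 Wald test called 51 lower, against 4.38% of all genes. DESeq2 called every one of the 43 genes as well.

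The median log2 fold change over the 79 tested members was −0.40, with quartiles of −0.49 and −0.27, against a median of 0.0043 and quartiles of −0.12 and 0.10 over all genes. The fold change was negative for 75 members and positive for 4. All 3 ISM1-/- libraries lay below all 3 WT libraries for 56 members, a pattern found in 12.3% of all genes, and above them for 3 members, beside 9.33% of all genes. Of the tested members, 77 passed the filter on low counts in both genotypes, and Spag6 and Spag11b passed through ISM1-/- libraries alone. Dnah14, Rsph6a, Cfap97d1 and Spag11a were below the filter.

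The number of calls rested on single libraries. It was 9 without WT replicate 2, 17 without WT replicate 3, 11 without ISM1-/- replicate 1 and 13 without ISM1-/- replicate 2, while it was 36 without WT replicate 1 and 54 without ISM1-/- replicate 3. Calls over all genes moved in the same direction. From 624 genes lower, they were 115, 253, 169, 181, 429 and 900 in these fits, in the same order, so the swing was not particular to the cilia genes. The fold change of each of the 43 genes stayed negative whichever library was left out. Cfap46, Cfap65, Dnaaf3, Dnah1, Dnah10, Dnah9, Dnaic2, Dnali1 and Drc3 were called lower in each of these 6 fits. The median log2 fold change over members stayed between −0.49 and −0.34.

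**Figure D1:**
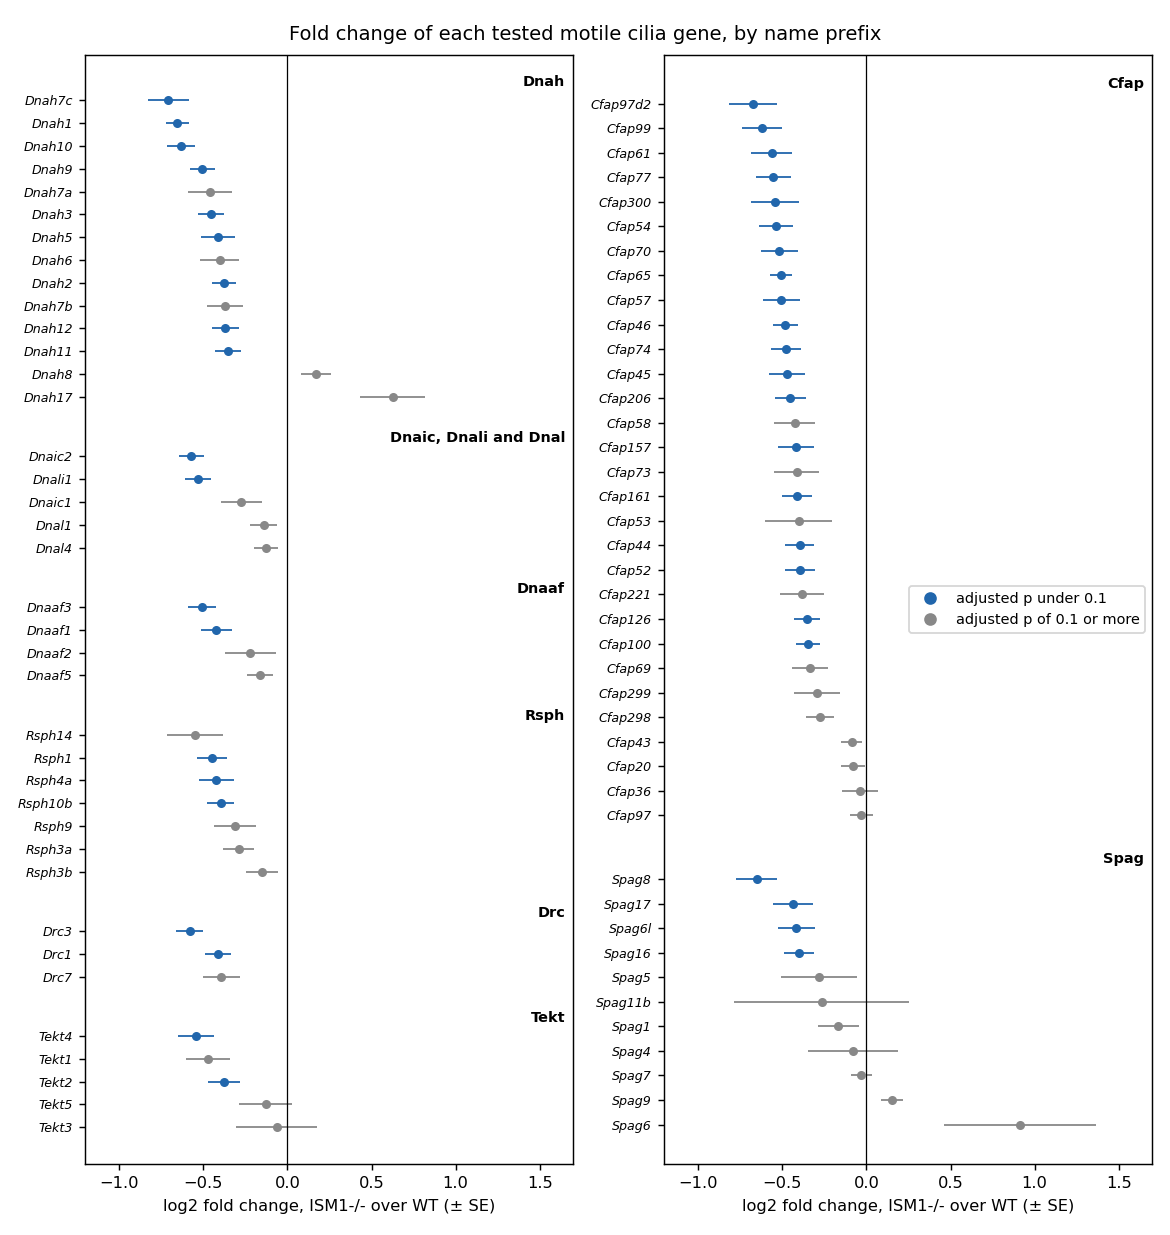
Log2 fold change (ISM1-/- over WT, ± SE from edgeR) of the 79 tested genes on the horizontal axis, 1 gene per line and grouped by name prefix, with genes at an adjusted p under 0.1 in blue and the others in grey. All 43 blue points lie left of 0 and 4 grey points (Dnah8, Dnah17, Spag9 and Spag6) lie right of it.

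The 3 ISM1-/- libraries were not lowered equally. The median log2 deviation of the members from their WT mean was −0.056, 0.051 and 0.0083 in WT replicates 1 to 3 and −0.51, −0.42 and −0.25 in ISM1-/- replicates 1 to 3. Replicate 3 of ISM1-/- was the highest of its genotype in 36 of the 43 called genes and replicate 1 was the lowest of all 6 libraries in 31 of them. Summed over the 75 members outside the broadly expressed list, the level was 1984, 2147 and 2067 CPM in WT and 1454, 1528 and 1729 CPM in ISM1-/-, or 76.0% of the WT mean. The groups did not overlap in this sum. In whole lung, fewer ciliated cells and less of these RNAs per ciliated cell cannot be told apart.

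**Figure D2:**
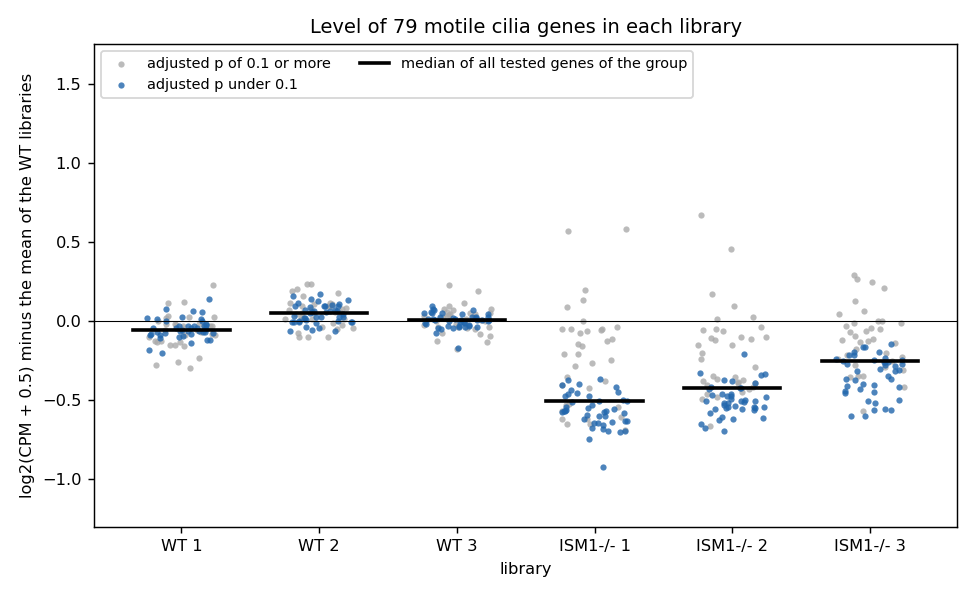
Log2 level of each of the 79 tested genes relative to its mean in WT (vertical axis, from CPM with 0.5 added), 1 point per gene in each of the 6 libraries, with genes at an adjusted p under 0.1 in blue, the others in grey and the median of each library as a bar. The medians of the 3 ISM1-/- libraries, −0.51, −0.42 and −0.25, lie below those of the 3 WT libraries, which lie between −0.056 and 0.051.

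Many genes of motile cilia are known targets of RFX factors, which bind the X-box, and of FOXJ1, a forkhead factor. The 250 bases before the start site were available from RefSeq (GRCm38.p6) for 68 of the 83 members and for 27025 genes in all. Searched on both strands, the half-site GTTGCC of the X-box was present in 20 of the 68 promoters (29.4%) and in 11.8% of all promoters. It was present in 12 of the 35 promoters of genes called lower (34.3%) and in 20 of the 65 promoters of all tested members (30.8%). Members that were not called, such as Cfap20, Dnaaf2 and Tekt1, also held it. Whether the half-site went with the falls was not tested. The full X-box, GTTNCC and GGNAAC with 2 bases between them, which can contain the half-site, was present in 1 of the 68 (1.47%), beside 0.444% of all promoters. The forkhead motif GTAAACA was present in 4 of the 68 (5.88%), none of them called lower, beside 3.54% of all promoters. The half-site was added after the full motif had been searched. A match is a string of letters and no evidence of binding.

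The following promoter stretches show where the half-site lies in genes that fell from the inner arm, the outer arm, the nexin-dynein complex and the central apparatus, followed by the 1 full X-box. They are written 5′ to 3′ on the strand of the gene, with the motif in capitals (GTTGCC, or GGCAAC where it reads on the other strand).
Dnah10, chr5:124725041-124725084, plus strand: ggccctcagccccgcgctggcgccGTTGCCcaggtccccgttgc
Dnaic2, chr11:114727369-114727418, plus strand: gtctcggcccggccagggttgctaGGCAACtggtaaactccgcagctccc
Drc1, chr5:30281358-30281392, plus strand: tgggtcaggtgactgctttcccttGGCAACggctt
Cfap46, chr7:139683816-139683848, minus strand: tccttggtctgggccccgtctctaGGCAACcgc
Spag16, chr1:69826835-69826888, plus strand: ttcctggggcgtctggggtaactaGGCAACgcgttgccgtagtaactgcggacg
Cfap298, chr16:90935000-90935061, minus strand: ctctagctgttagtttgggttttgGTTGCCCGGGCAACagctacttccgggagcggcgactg
In Dnah10, Dnaic2, Drc1 and Cfap46 the match ends 15, 21, 6 and 4 bases before the RefSeq start, which for Dnaic2, Drc1 and Cfap46 lies within the gene as the deposited table gives it. Spag16 holds the half-site on both strands within 1 stretch. Cfap298, a dynein assembly factor with the full X-box, had a log2 fold change of −0.27 and was not called.

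The dynein heavy chains are the motor subunits, and the member with the largest called fall, Dnah7c, is one of them. Of 15 Dnah genes, 14 were tested, 9 fell and 12 had a negative fold change, with a median of −0.41. Their summed level in ISM1-/- was 73.8% of that in WT. Over all genes tested, 3.34% were called lower and 48.8% had a negative fold change. These shares also stand beside the counts of the other name groups below.

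Gene positions are those of the deposited table on GRCm38. Among heavy chains of the inner arms, Dnah1 (chr14:31260375-31323896, minus strand) was at 31.8, 34.5 and 35 CPM in WT and at 20.5, 21.8 and 22.1 CPM in ISM1-/-. The groups were far apart and the 3 ISM1-/- values lay close together, at a log2 fold change of −0.65 ± 0.069 (SE, edgeR adjusted p = 0.00739), the smallest adjusted p of any member. Dnah10 (chr5:124725085-124834308, plus strand) was at 89.6, 105 and 92.7 CPM in WT against 56.8, 61.7 and 67.2 CPM in ISM1-/-, a log2 fold change of −0.63 ± 0.083 (SE, edgeR adjusted p = 0.0108). Dnah2, the partner of Dnah10 in the 2-headed inner arm, had a log2 fold change of −0.38, and Dnah3 and Dnah12, chains of single-headed inner arms, of −0.45 and −0.37. All 3 were called lower. Dnah6, another inner-arm chain, had a log2 fold change of −0.40 and an edgeR adjusted p of 0.119.

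Dnah7c, an inner-arm chain, was at 14.5, 15.6 and 15.9 CPM in WT and at 7.85, 9.27 and 11.1 CPM in ISM1-/-, a log2 fold change of −0.71 ± 0.12 (SE, edgeR adjusted p = 0.0238). Dnah7a and Dnah7b are near-identical copies of it, with log2 fold changes of −0.46 and −0.37 and edgeR adjusted p values of 0.111 and 0.108. How the authors' counting split reads between the 3 copies is not given in the sources used here, so their separate values are uncertain.

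The outer-arm heavy chains are encoded by different genes in airway cilia and in sperm. Dnah5, Dnah9 and Dnah11 are the chains of airway cilia, and all 3 fell. Dnah9 (chr11:65831282-66168551, minus strand) was at 57.4, 61.5 and 57.4 CPM in WT and at 39.6, 39.1 and 45.4 CPM in ISM1-/- (log2 fold change −0.51 ± 0.074 (SE), edgeR adjusted p = 0.0153). Dnah5 was at 112, 123 and 113 CPM in WT and at 79.3, 79 and 103 CPM in ISM1-/-, where replicate 3 came close to WT (−0.41 ± 0.10, edgeR adjusted p = 0.0706). Dnah11 was at 42.1, 43.9 and 43.2 CPM in WT and at 31.1, 33.0 and 37.1 CPM in ISM1-/- (−0.35 ± 0.075, edgeR adjusted p = 0.0446). Dnah8 and Dnah17, singled out after their values were seen, are known as outer-arm chains of sperm flagella. Dnah17 was scarce, at 1.64, 2.07 and 1.63 CPM in WT and at 2.87, 3.11 and 2.28 CPM in ISM1-/-, and Dnah8 lay between 11.0 and 12.8 CPM in WT and between 12.9 and 13.6 CPM in ISM1-/-. Neither passed the test, with log2 fold changes of 0.62 and 0.17 and edgeR adjusted p values of 0.139 and 0.405. Whether they differed from the airway chains was not tested.

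Intermediate and light chains anchor and tune the motors. Dnaic2 (chr11:114727408-114757889, plus strand), an outer-arm intermediate chain, was at 25, 24.4 and 24.4 CPM in WT and at 16.3, 15.5 and 17.8 CPM in ISM1-/-. The WT libraries were nearly equal and the log2 fold change was −0.57 ± 0.074 (SE, edgeR adjusted p = 0.0108). Dnali1, an inner-arm light intermediate chain, was at 28.8, 31.1 and 30.1 CPM in WT and at 18.8, 20.9 and 22.6 CPM in ISM1-/- (−0.53 ± 0.080, edgeR adjusted p = 0.0163). Dnaic1, the partner of Dnaic2 in the outer arm, was at 12.4, 12.4 and 13.1 CPM in WT and at 9.80, 9.06 and 12.5 CPM in ISM1-/-. Its groups overlapped through ISM1-/- replicate 3, and with a log2 fold change of −0.27 and an edgeR adjusted p of 0.316 it was not called. The light chains Dnal1 and Dnal4 had log2 fold changes of −0.14 and −0.13 and were not called.

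Of 4 tested dynein assembly factors with a Dnaaf symbol, 2 fell. Dnaaf3 was at 18.2, 19.0 and 20.1 CPM in WT and at 14.3, 12.8 and 13.2 CPM in ISM1-/- (log2 fold change −0.51 ± 0.081 (SE), edgeR adjusted p = 0.0183). Dnaaf1 was at 9.96, 9.82 and 9.84 CPM in WT and at 7.28, 7.69 and 7.14 CPM in ISM1-/- (−0.42 ± 0.093, edgeR adjusted p = 0.0491). Neither gene overlapped between genotypes, and in both the highest ISM1-/- value lay outside replicate 3. Dnaaf2 and Dnaaf5, from the broadly expressed list, had log2 fold changes of −0.22 and −0.17 and were not called. Dnaaf3 shares 86 exonic bases on the same strand with Tnni3, a heart muscle gene, which was at 80.9, 33.9 and 39.0 CPM in WT and at 20.1, 24.7 and 35.4 CPM in ISM1-/-. Tnni3 was high in WT replicate 1, where Dnaaf3 was at its lowest WT value, but the lowest Tnni3 values were in ISM1-/- replicates 1 and 2. What part Tnni3 reads had in the Dnaaf3 values was not tested. Dnaaf1 shares 584 exonic bases on the opposite strand with Taf1c, and without the strand setting of the counting its value is uncertain. The same holds, among others, for Dnali1, Dnah3, Dnah11, Cfap74, Cfap61 and Spag17. They share 43, 1506, 642, 453, 57 and 820 exonic bases with Gnl2, Lyrm1, Cdca7l, 5830444B04Rik, Crnkl1 and Wdr3 on the opposite strand. Dnaaf2 shares 1107 of its 3390 exonic bases with 9330151L19Rik on the opposite strand, at mean counts of 176 and 529. Cfap298 and Tekt2 share 703 and 396 with AC134560.3 and Gm12945, also on the opposite strand.

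Radial spokes connect the doublets to the central apparatus. Of 8 Rsph genes, 7 were tested and 3 fell. Rsph1, a spoke head protein, was at 28.7, 30.4 and 31.1 CPM in WT and at 20.3, 21 and 25 CPM in ISM1-/- (log2 fold change −0.45 ± 0.087 (SE), edgeR adjusted p = 0.0342). Rsph10b was at 23.9, 24.5 and 24.9 CPM in WT and at 17.1, 18.0 and 20.5 CPM in ISM1-/- (−0.40 ± 0.081, edgeR adjusted p = 0.0375), and it shares 85 exonic bases on its own strand with Pms2. Rsph4a had a log2 fold change of −0.42 and was called as well. Rsph14, Rsph9, Rsph3a and Rsph3b had log2 fold changes of −0.55, −0.31, −0.29 and −0.15 and were not called, and the last pair are close copies whose counts are uncertain.

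The nexin-dynein regulatory complex was represented by 3 genes with a Drc symbol, of which 2 fell. Drc3 (chr11:60353329-60394341, plus strand) was at 30.8, 35.5 and 33.5 CPM in WT and at 20.3, 23.1 and 23.4 CPM in ISM1-/- (log2 fold change −0.58 ± 0.081 (SE), edgeR adjusted p = 0.0123). Drc1, the scaffold of the complex, was at 23.2, 23.0 and 23.3 CPM in WT and at 17.0, 16.2 and 19.0 CPM in ISM1-/- (−0.41 ± 0.077, edgeR adjusted p = 0.0297). Drc7 had a log2 fold change of −0.39 and an edgeR adjusted p of 0.112. The 3 genes together were at 71.9% of WT, the lowest share of the name groups. Subunits of the complex under other symbols lay outside the name rule and this share. Of these, Ccdc65 was called lower at −0.43, while Iqcg (−0.32) and Gas8 (−0.10, with overlapping groups) were not called.

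Tektins form filaments within the doublet wall. Tekt4 was at 10.7, 12.3 and 11.4 CPM in WT and at 7.54, 8.74 and 7.38 CPM in ISM1-/- (log2 fold change −0.54 ± 0.11 (SE), edgeR adjusted p = 0.0343), and Tekt2 was called lower at −0.38. Tekt1 lay at the edge of the threshold. It was at 14.7, 19.7 and 18.9 CPM in WT and at 11.0, 13.4 and 14.1 CPM in ISM1-/-, with an edgeR adjusted p of 0.1002. Tekt5 and Tekt3 had log2 fold changes of −0.13 and −0.06 and were not called.

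The Cfap genes, named for proteins of cilia and flagella, were the most numerous group, with 31 members, 30 tested and 19 called lower. Their fold changes were all negative, with a median of −0.42, and their summed level in ISM1-/- was 79.4% of WT. Cfap65 (chr1:74902071-74935599, minus strand), required for sperm flagella, was the called member with the highest CPM, at 129, 137 and 128 CPM in WT and at 84.7, 94.9 and 98.4 CPM in ISM1-/- (−0.51 ± 0.068 (SE), edgeR adjusted p = 0.0116). Cfap46, a protein of the central apparatus, was at 42.6, 45.1 and 42.2 CPM in WT and at 28.4, 31.3 and 33.5 CPM in ISM1-/- (−0.48 ± 0.075, edgeR adjusted p = 0.0166). Cfap54 and Cfap74, also of the central apparatus, were called at log2 fold changes of −0.54 and −0.48. Cfap45, Cfap52, Cfap126 and Cfap161, which sit inside the doublet wall, were called at −0.47, −0.39, −0.35 and −0.41. Cfap61 and Cfap206, which belong to the radial spoke region, were called at −0.56 and −0.45, and Cfap70, of the outer dynein arm, and Cfap100, which tethers an inner arm, at −0.52 and −0.35. Cfap77 and Cfap99 were called at −0.55 and −0.62.

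The strongest fall among the Cfap genes was in Cfap97d2, a gene of low abundance. It was at 4.90, 5.58 and 4.29 CPM in WT and at 3.05, 3.03 and 3.18 CPM in ISM1-/- (log2 fold change −0.67 ± 0.14 (SE), edgeR adjusted p = 0.0451). Cfap44 and Cfap43 are partners in one complex that tethers an inner arm to the doublet, and their values stood apart. Cfap44 was at 85.5, 91.5 and 93.1 CPM in WT and at 63.2, 63.7 and 78.5 CPM in ISM1-/- (−0.40 ± 0.087, edgeR adjusted p = 0.0488). Cfap43 was at 114, 123 and 118 CPM in WT and at 106, 110 and 118 CPM in ISM1-/-, with overlapping groups, a log2 fold change of −0.09 and an edgeR adjusted p of 0.547. The difference between these fold changes was not tested. By the authors' FPKM, Cfap43 also had the highest level of the Cfap genes, with a mean of 52.4 FPKM. Cfap65 had a higher mean CPM in WT, 132 against 118, at a shorter listed length, so this order is uncertain. Cfap20, Cfap36 and Cfap97 had log2 fold changes of −0.08, −0.04 and −0.03.

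The Spag genes, named as sperm-associated antigens, are the most mixed in function, and 4 of 11 tested fell. Spag8, a protein inside the doublet wall, was at 7.76, 9.97 and 9.04 CPM in WT and at 5.33, 5.87 and 5.86 CPM in ISM1-/- (log2 fold change −0.65 ± 0.12 (SE), edgeR adjusted p = 0.0298). Spag6l, Spag16 and Spag17 belong to the central apparatus and were called at −0.42, −0.40 and −0.43. Spag9, a scaffold of JNK signalling found in most cells, was the most abundant member at 276, 263 and 274 CPM in WT and 288, 290 and 325 CPM in ISM1-/-. It had a log2 fold change of 0.15 and an edgeR adjusted p of 0.279, and through it the summed Spag level in ISM1-/- was 101% of WT. Spag6, a close copy of Spag6l, was counted 8, 10 and 9 times in WT and 25, 19 and 8 times in ISM1-/- (log2 fold change 0.91 ± 0.45 (SE), edgeR adjusted p = 0.371), and its separation from Spag6l is uncertain.

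The broadly expressed members were set beside the other members. Their list was chosen with earlier results of these data known, so the contrast is a description and tests nothing. None of the 8 was called by edgeR or by DESeq2, and 1 was higher at an unadjusted p under 0.05 in edgeR. Their median log2 fold change was −0.084. Of the 71 other tested members, 43 fell, beside 3.34% of all genes, with a median of −0.41. The summed level of the 8 was 448, 437 and 452 CPM in WT and 451, 454 and 494 CPM in ISM1-/-, with overlap between the groups. Spag7, among the most abundant Spag genes per length, had a log2 fold change of −0.03.

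Levels were compared between genes as FPKM, the authors' values per gene length and library size. The gene length behind these values is for most genes not the listed one, so an order of genes by FPKM is uncertain. By FPKM, Dnah10 led the heavy chains with a mean of 13.2. In WT, Dnah6, Dnah5 and Dnah3 had higher mean CPM than Dnah10, at 131, 116 and 98.7 against 95.9. Their listed lengths are shorter than that of Dnah10. Of 22 tested members under 5 FPKM, 6 were called, of 37 between 5 and 15 FPKM, 27 were called, and of 20 above 15 FPKM, 10 were called. Over all levels, 3.34% of all genes were called lower, and the share of all genes within each class was not computed. The heavy chains are among the longest genes of the set. With all tested genes split by length into 4 classes of equal size, from short to long, the median log2 fold changes of the members were −0.36, −0.40, −0.44 and −0.40, and those of all genes lay between −0.0093 and 0.015.

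**Figure D3:**
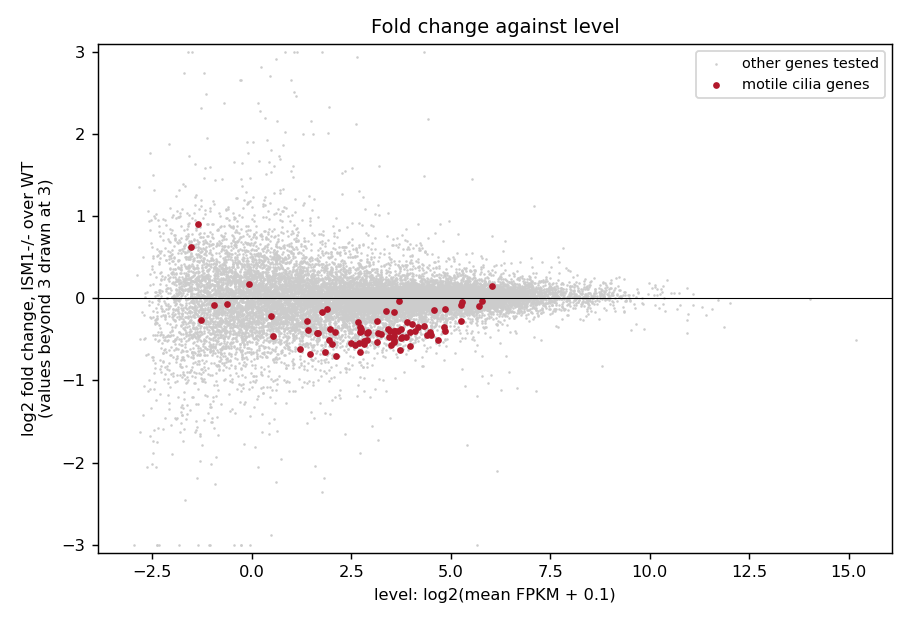
Log2 fold change (ISM1-/- over WT, vertical axis) against the log2 of the mean FPKM with 0.1 added (horizontal axis), with the 79 tested cilia genes in red over all 18689 tested genes in grey. The red points centre at −0.40 over most of the range of levels, while the grey points centre at 0.0043.

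Genes of motile cilia without these name prefixes also fell. This list and those that follow were chosen with earlier results of these data known, so they describe and test nothing. Of 63 symbols listed as other motile cilia genes, 58 were in the deposited table and 55 were tested. Of these, 31 fell (56.4%, beside 3.34% of all genes) and none was higher by edgeR, DESeq2 or an unadjusted p under 0.05. The median log2 fold change was −0.45. Nme9, a thioredoxin domain protein of cilia, was at 25.7, 26.6 and 25.3 CPM in WT and at 15.6, 17.1 and 18.5 CPM in ISM1-/- (log2 fold change −0.60 ± 0.079 (SE), edgeR adjusted p = 0.0108), and Spata18 was called at −0.53. Summed over this list the level in ISM1-/- was 74.7% of WT, and the libraries kept the order of the members, with 660, 711 and 808 CPM in ISM1-/- replicates 1 to 3. Leaving out 1 library gave between 5 and 42 calls here, with the lowest count without WT replicate 2.

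Genes listed as regulators of the program of multiciliated cells were lower too. Of 15 tested, 6 fell (40%, beside 3.34% of all genes) and 15 had a negative fold change, beside 48.8% of all genes. Ccdc78, called lower, is counted both here and among the other motile cilia genes. Foxj1, the forkhead factor of motile cilia, was at 106, 124 and 116 CPM in WT and at 84.9, 79.8 and 77.6 CPM in ISM1-/- (log2 fold change −0.51 ± 0.071 (SE), edgeR adjusted p = 0.0118). Unlike most members, Foxj1 had its lowest value in ISM1-/- replicate 3. The summed level of the list was 310, 343 and 339 CPM in WT and 263, 257 and 253 CPM in ISM1-/-. That is 78.0% of WT, without overlap, and replicate 3 was lowest in this sum too. Trp73, a transcription factor needed for multiciliated cells, was at 15.4, 15.6 and 15.1 CPM in WT and at 9.54, 11.4 and 9.27 CPM in ISM1-/- (−0.61 ± 0.098, edgeR adjusted p = 0.0186).

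Intraflagellar transport and BBSome genes, which serve the primary cilia of many cell types as well as motile cilia, had small negative fold changes. Of 33 tested, 3 fell (9.09%, beside 3.34% of all genes), namely Wdr34, Wdr19 and Traf3ip1. The fold change was negative for 31 of the 33, beside 48.8% of all genes, with a median of −0.16. In 13 of them all 3 ISM1-/- libraries lay below all 3 WT libraries, a pattern found in 12.3% of all genes. Wdr34, a dynein-2 subunit of the transport machinery, was at 16.2, 18.6 and 16.5 CPM in WT and at 12.9, 12.6 and 12.3 CPM in ISM1-/- (log2 fold change −0.44 ± 0.084 (SE), edgeR adjusted p = 0.0314). The summed level of the list was 89.8% of WT, with no overlap between the groups. Between 0 and 13 of its genes were called when 1 library was left out.

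Markers of ciliated cells and of club cells also fell, and those of other airway cells were mixed. Over all genes, 3.34% were called lower and 1.38% higher. Of 16 markers of ciliated cells, some shared with the lists above, 12 fell, with a median log2 fold change of −0.42. Among them was Cyp2s1, a cytochrome P450, at −0.43. Their sum was 2657, 3055 and 3026 CPM in WT and 2482, 2632 and 2705 CPM in ISM1-/-, with overlap. The most abundant of them was at 1293 FPKM, beside a median of 33.4 FPKM, so abundant genes weigh most in this sum. Of 12 markers of club and secretory cells, the unciliated cells of the same epithelium, 8 fell, with a median of −0.39, and the smallest p belonged to Cckar, a cholecystokinin receptor (−0.58), and Gabrp, a GABA receptor subunit (−0.40). Scgb1a1, the main secreted protein of club cells, was at 20330, 20483 and 21888 CPM in WT and at 12932, 14426 and 16609 CPM in ISM1-/- (log2 fold change −0.51, edgeR adjusted p = 0.027). The club cell list summed to 71.1% of WT, with ISM1-/- replicate 3 again the highest of its genotype. Most of this sum came from Scgb1a1, at 20330 of 25103 CPM in WT replicate 1. Basal cell markers had 1 of 9 genes called lower and a median of −0.024, with a lower quartile of −1.01. Their sums overlapped at 106% of WT. Most of these markers were scarce, with a median of 0.498 FPKM beside 215 FPKM for the most abundant, so abundant genes weigh most in the sum. Tracheal cartilage and gland markers had 2 of 10 tested genes called lower and 1 higher. Their median log2 fold change was −0.41, with 6 negative and 4 positive, while their sum was 114% of WT without overlap. The most abundant of them was at 227 FPKM, beside a median of 8.08 FPKM, so abundant genes weigh most in that sum. Of 10 alveolar type 2 markers edgeR called none, with 2 lower at an unadjusted p under 0.05, and DESeq2 called 1 lower. Their median was −0.05, and their sum was 96.0% of WT, with all 3 ISM1-/- libraries below all 3 WT libraries. The part of the amount of airway epithelium in each sample in the falls of the cilia genes was not tested.

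**Figure D4:**
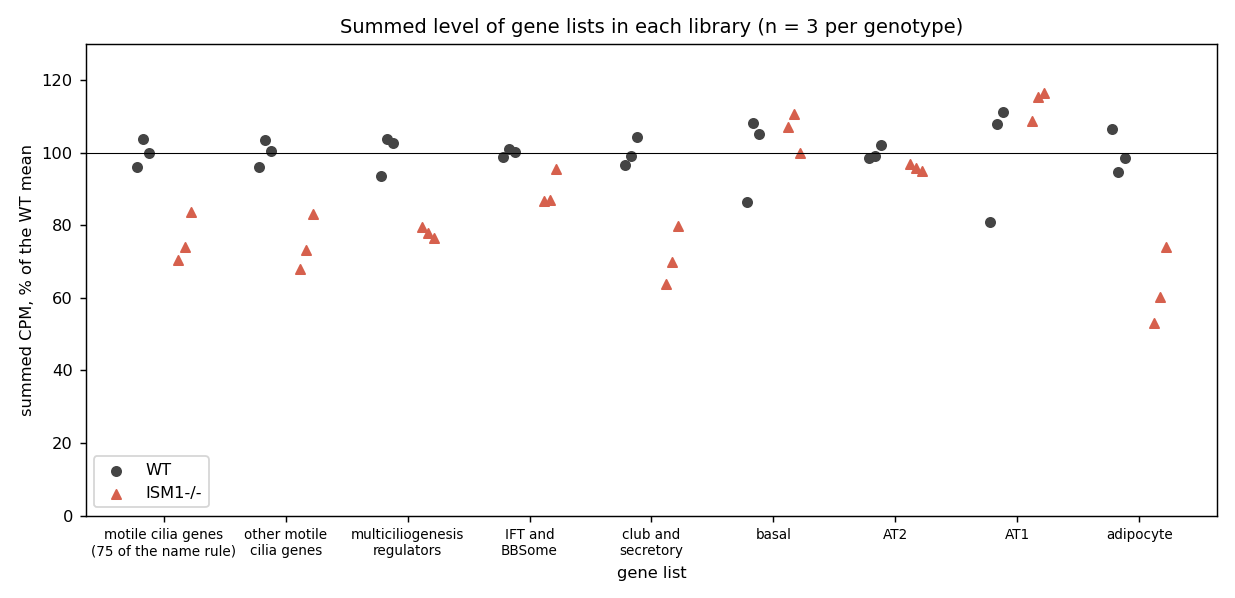
Summed CPM of gene lists as a percentage of the WT mean (vertical axis), 1 point per library for each list on the horizontal axis. The cilia genes, other motile cilia genes and club cell markers lie below WT in all 3 ISM1-/- libraries, with replicate 3 closest to WT, and alveolar type 2 markers (AT2) lie between 95.1% and 102%. IFT stands for intraflagellar transport and AT1 for alveolar type 1.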

How the data were processed

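Poly-A RNA of perfused mouse lungs was made into strand-specific libraries and sequenced in read pairs, and the authors aligned the reads to GRCm38 with STAR. The deposited counts are whole numbers of reads per gene without normalization. The authors also deposited FPKM values, scaled by library total and by a gene length that for most genes is not the length listed in the table. The counting program, annotation and strand setting are not given in the sources used here.

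The analysis ran in R 4.3.3 and used edgeR 4.0.16 with TMM scaling, at least 0.5 CPM in at least 1 library, and the quasi-likelihood test of ISM1-/- against WT over 18689 genes, with Benjamini-Hochberg adjustment and calls at an adjusted p under 0.1. Standard errors were derived from the F statistic. FPKM served only to compare levels between genes. The test was tried on simulated counts. Sequences were from RefSeq, and exon overlaps from GENCODE release M 21. Alternatives were DESeq2 1.42.0, other scalings, filters and thresholds, a length correction, the replicate number as a block and omission of each library.

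The members and lists were chosen with earlier results of these data known. Named genes are the 30 members with the smallest p, the 2 highest by FPKM and the strongest change in each name group, Dnah5, Dnah9, Dnah11, Dnaic1, Dnaaf1, Rsph1, Ism1, Foxj1, the 2 smallest p of each list, and genes overlapping these. Other names were chosen after their values were seen. Replicates are separate mice, and those that share a number differ in genotype and so are different animals. Correlations of their deviations from the group means were −0.040, 0.031 and 0.0010, so no pairing by number was seen. What a shared number stands for in the processing is not given in the sources used here. A chi-square comparison found no duplicate libraries.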

Additional observations from a re-analysis of the deposited data

How the results depend on the processing

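The number of members called lower, 43, was 51 with DESeq2, 42 with RLE size factors, 49 with library totals, 52 without a filter, 44 with at least 0.5 CPM in 3 libraries, 42 with protein-coding genes above a mean of 2 CPM, 42 with the length correction, 34 at an adjusted p under 0.05 and 0 with at least a 2-fold change. With the replicate number as a block it was 52, but no pairing by number was seen between the mice. Leaving out 1 library gave between 9 and 54 calls over all members, 3 and 12 for Dnah, 1 and 2 for Dnaaf, 0 and 4 for Rsph, 1 and 3 for Drc, 0 and 3 for Tekt, 2 and 24 for Cfap, 0 and 4 for Spag, 5 and 42 for other motile cilia genes, 2 and 7 for multiciliogenesis regulators and 0 and 13 for intraflagellar transport. Lower calls over all genes moved too, from 624 to between 115 and 900 of about as many genes tested with a library left out, and to 1066 of 31946 without a filter and 706 with the block. The fits with fewer libraries also have fewer degrees of freedom. Members called higher numbered 1 without a filter and between 0 and 1 with a library left out, against 0. The log2 fold change of Cfap36, −0.039, lay between −0.18 and 0.043 with a library left out, and was 0.0013 without WT replicate 3, 0.043 without ISM1-/- replicate 1 and 0.015 without ISM1-/- replicate 2. The median log2 fold change of the members stayed between −0.49 and −0.34, and their summed level between 77.4% and 83.7% of WT with a library left out.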

Other observations

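Adipocyte and cardiomyocyte markers, from tissue that can accompany a lung, were also measured, beside 3.34% of all genes called lower. Of 12 adipocyte markers, 9 fell, with a median log2 fold change of −1.51, and their sum was 438, 390 and 406 CPM in WT and 219, 248 and 305 CPM in ISM1-/-. Plin1, which coats lipid droplets, and Cidec, which enlarges them, fell by 1.88 and 0.90 on the log2 scale. Cardiomyocyte markers had 1 of 16 genes called lower and a median of −1.07, and their sum was 1854, 617 and 730 CPM in WT and 335, 461 and 652 CPM in ISM1-/-, with overlap and with WT replicate 1 far above the rest. Myl7 and Sln, atrial muscle genes, had log2 fold changes of −1.11 and −1.197, and only Myl7 passed edgeR's test (adjusted p = 0.097).

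The basal cell marker that was called lower was Krt15, at a log2 fold change of −1.02, while Krt5 was not called at −1.01. Among 10 tested markers of tracheal cartilage and glands, Chad, a cartilage matrix protein, fell (−0.62), Bpifb1, a secreted protein of airway glands, was the other gene called lower, and Lyz1, a lysozyme, rose (0.61). Alveolar type 1 markers had 1 of 9 genes called, Rtkn2, which rose (0.45). Clic5 was not called at 0.29, and the median of the list was 0.16. Of 6 tested neuroendocrine and tuft cell markers, edgeR and DESeq2 called 0 and 0 were under an unadjusted p of 0.05, with a median of −0.21 and values of −0.21 for Dclk1 and −0.44 for Calca. Among alveolar type 2 markers, Cxcl15 and Sftpb had log2 fold changes of −0.17 and −0.20 and were not called by edgeR.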
